A study of Mus musculus with 10 samples.

Results

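The abundant T cell receptor alpha chains of mouse splenic regulatory T cells are described here, as the 100 alpha clonotypes with the highest count in each of 10 libraries. An alpha clonotype was a distinct CDR3 nucleotide sequence whose protein end matched no beta chain J segment, and ties at the lower bound were broken alphabetically. The rule gave 1000 members, which are 885 distinct sequences among 132890 distinct alpha clonotypes and 387286 deposited entries of both chains. The members were chosen by count, the same deposited value that gives their level, so their levels and the overlap of the 10 lists are described without a test. Tests were kept for what the count did not use: the J ends, the length, the presence of a clonotype in other libraries, and other codons for the same amino acids in its own library.

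There were 5 libraries from CNS4KO mice, whose treatment label is KO, and 5 from CNS4Flox mice, whose treatment label is WT. CNS4 is an enhancer that acts on Foxp3, which encodes the transcription factor of regulatory T cells, and the CNS4Flox strain name refers to loxP sites around it. No Cre driver, age or sex is given in the labels, and no mouse was treated. All libraries were made from RNA of regulatory T cells taken directly from the spleen. The labels give no animal identity or replicate number, so replicates were numbered in accession order, and p-values measure the spread between these samples, which may be technical. The tables list receptors only, so the identity of the cells was not checked against marker genes.

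A T cell receptor pairs an alpha with a beta chain, and the alpha gene is made in the thymus by joining a V segment to a J segment. The CDR3 is the stretch across that joint, from a conserved cysteine to a conserved phenylalanine, and it carries bases added or trimmed at the joint, which make most CDR3s differ between animals. Sequences that need few added bases arise often and are found in many animals, where they are called public, while a sequence found in a single animal is called private. Cells of a clone that divided share their CDR3, and clonal growth and a high amount of receptor RNA per cell both raise a count, which cannot be told apart here.

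The sequences below are the clonotypes that were members of the most libraries. They are named by J segment and a letter, read 5′ to 3′, with the last 18 bases, which encode the 6 residues used to name the J segment, in capitals.
TRAJ12-a: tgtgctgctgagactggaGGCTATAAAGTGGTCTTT
TRAJ30-a: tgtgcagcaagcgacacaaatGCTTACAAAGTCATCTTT
TRAJ18-a: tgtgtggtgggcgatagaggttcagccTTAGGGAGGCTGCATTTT
TRAJ31-a: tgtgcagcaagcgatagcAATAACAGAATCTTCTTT
TRAJ12-b: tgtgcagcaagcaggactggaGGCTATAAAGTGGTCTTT
TRAJ30-b: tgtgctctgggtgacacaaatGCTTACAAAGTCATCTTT
TRAJ40-a: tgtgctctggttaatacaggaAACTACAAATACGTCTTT
TRAJ22-a: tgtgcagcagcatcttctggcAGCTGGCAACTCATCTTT
TRAJ22-b: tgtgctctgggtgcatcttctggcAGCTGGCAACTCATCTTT
The clonotype that was a member of all 10 libraries is shown with other capitals: they mark a stretch like the nonamer and a stretch like the heptamer of a recombination signal, the pair of motifs at which the recombinase cuts beside a V or J segment.
TRAJ45-a: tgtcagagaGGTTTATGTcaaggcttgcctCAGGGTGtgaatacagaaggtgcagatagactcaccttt
For comparison, the largest clonotypes of 6 libraries are shown, 5 of which are private: TRAJ17-a of CNS4KO replicate 1, TRAJ26-b of CNS4KO replicate 3, TRAJ31-b of CNS4KO replicate 5, TRAJ30-d of CNS4Flox replicate 1, TRAJ24-a of CNS4Flox replicate 3 and TRAJ43-a of CNS4Flox replicate 5.
TRAJ17-a: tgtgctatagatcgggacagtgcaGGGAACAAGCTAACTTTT
TRAJ26-b: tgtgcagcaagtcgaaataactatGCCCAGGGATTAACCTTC
TRAJ31-b: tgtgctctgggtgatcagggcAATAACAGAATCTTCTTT
TRAJ30-d: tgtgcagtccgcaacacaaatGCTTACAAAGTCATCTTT
TRAJ24-a: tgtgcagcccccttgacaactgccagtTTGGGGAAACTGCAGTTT
TRAJ43-a: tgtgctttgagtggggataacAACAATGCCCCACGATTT

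Depth was 61793 to 95853 counts per library over both chains, of which 40584 to 68663 were alpha counts. The alpha counts fell on 15178 to 20508 clonotypes in CNS4KO libraries and on 19916 to 23908 in CNS4Flox libraries. A pair of libraries with different labels, CNS4KO replicate 5 and CNS4Flox replicate 3, stood apart. Of the 100 members of CNS4Flox replicate 3, 87 were found in CNS4KO replicate 5, while the other 89 ordered pairs of libraries gave 8 to 42. Among these 87, 40 were found in no library besides these, against at most 5 members shared by any other pair alone. The reverse search found 34 of the 100 members of CNS4KO replicate 5 in CNS4Flox replicate 3. Levels of the 87 were unequal: the median count was 49 in CNS4Flox replicate 3 and 17 in CNS4KO replicate 5, and 81 of them had the higher count in CNS4Flox replicate 3. They held 4.35% of the alpha counts of CNS4KO replicate 5. The largest clonotype of CNS4Flox replicate 3, TRAJ24-a with 342 counts, had none in CNS4KO replicate 5. The labels record nothing that links these libraries. The tests of sharing, the total numbers of recurrent members and the sharing by rank are given with and without them. Recurrence by group, apart from the mean overlap of lists of different groups, and J segments by class of sharing are given with them only.

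**Figure D1:**
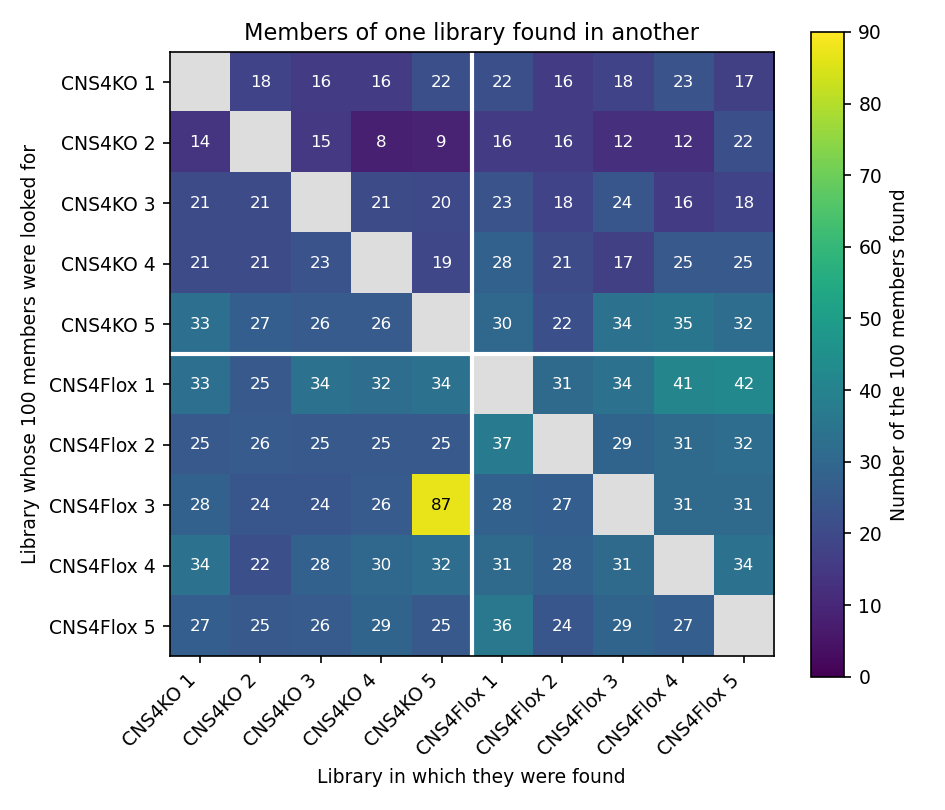
Number of the 100 most abundant alpha clonotypes of 1 library (rows) with a count of at least 1 in another library (columns), CNS4KO libraries first, colour and digits giving the number. The cell of CNS4Flox replicate 3 members in CNS4KO replicate 5 holds 87 and every other cell lies between 8 and 42.

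The members held a larger part of the alpha counts in CNS4KO libraries, which follows from the values that chose them. Their share was 28.1%, 22.4%, 22.0%, 18.1% and 16.6% across CNS4KO replicates 1 to 5 and 7.34%, 11.6%, 14.9%, 10.7% and 12.8% across CNS4Flox replicates 1 to 5. Every CNS4KO library lay above every CNS4Flox library, with means of 21.5% ± 4.49 (SD, n = 5) and 11.5% ± 2.81 (SD, n = 5). The same holds for the lowest member. Its count was 54, 55, 41, 35 and 39 across CNS4KO replicates 1 to 5 and 17, 24, 31, 23 and 28 across CNS4Flox replicates 1 to 5. The first clonotype outside the list had 54, 54, 40, 34 and 39 counts in CNS4KO and 17, 24, 31, 23 and 28 counts in CNS4Flox libraries, so the bound separates neighbours that differ by at most 1 count. In 7 libraries it was a tie that the alphabet broke.

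The top of the lists varied more than the bottom. The largest clonotype had 2042, 421, 913, 419 and 1433 counts across CNS4KO replicates 1 to 5, and 113, 258, 342, 322 and 629 counts across CNS4Flox replicates 1 to 5. Here the groups overlapped, since the 629 counts of TRAJ43-a in CNS4Flox replicate 5 exceeded the largest clonotypes of CNS4KO replicates 2 and 4. As a share of alpha counts the largest clonotype held 0.833% to 2.97% in CNS4KO and 0.257% to 1.25% in CNS4Flox libraries. From the first to the hundredth member the count fell 6.65-fold in CNS4Flox replicate 1, the flattest list, and 37.8-fold in CNS4KO replicate 1, the steepest. The 10 largest clonotypes together held 12.7%, 5.72%, 7.70%, 4.85% and 6.27% of alpha counts across CNS4KO replicates 1 to 5 and 1.66%, 3.13%, 4.5%, 3.24% and 4.80% across CNS4Flox replicates 1 to 5.

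**Figure D2:**
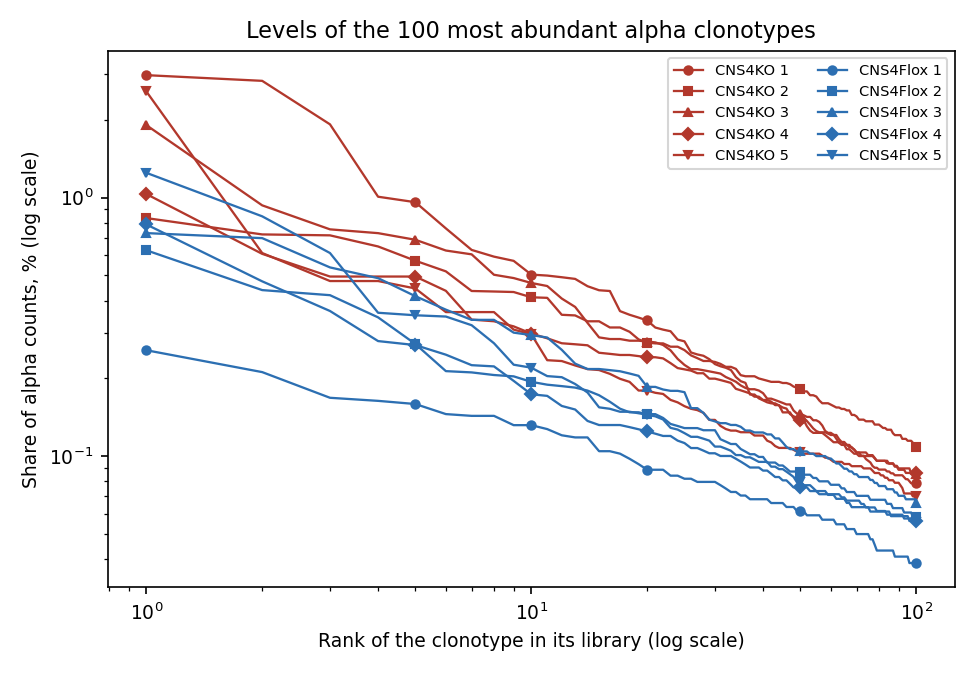
Share of a library's alpha counts (%, log scale) held by each of its 100 most abundant alpha clonotypes, against rank (log scale), 1 line per library, CNS4KO in red and CNS4Flox in blue. At rank 100 all CNS4KO lines (0.0700% to 0.109%) lie above all CNS4Flox lines (0.0387% to 0.0661%), while at rank 1 the groups overlap.

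Most of the members were members of a single library. Of the 885 distinct members, 816 were in 1 list of 100, 50 in 2, 9 in 3, 5 in 4, 1 in 5, 2 in 7, 1 in 8 and 1 in all 10. Presence at any count was wider. In all, 464 were found in 1 library only, 352 were a member once and present at a lower rank elsewhere, and 69 were members of several libraries. Without the pair of libraries described above, the other 8 had 728 distinct members, of which 687 were in 1 list, 41 in several and 427 in 1 library only. Of the 69, 17 had a count in all 10 libraries, 34 in at least 8 and 19 in fewer than 5. Of those 19, 10 were found in 2 libraries only, and 4 of these 10 were shared by that pair.

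The clonotype with the widest spread was TRAJ45-a. It had 58, 79, 46, 50 and 57 counts across CNS4KO replicates 1 to 5 and 32, 30, 62, 32 and 60 counts across CNS4Flox replicates 1 to 5, all of them within the range of 30 to 79. As a share of alpha counts, CNS4KO libraries held 0.112% ± 0.0283 of it and CNS4Flox libraries 0.0950% ± 0.0284 (SD, n = 5 each), a difference smaller than the spread. At 69 bases it was the longest member: no other member exceeded 54 bases, and 0.128% of all alpha clonotypes did. The stretch in capitals at bases 10 to 18 has 1 mismatch to the nonamer GGTTTTTGT and that at bases 31 to 37 has 2 mismatches to the heptamer CACTGTG, with the 12 bases between them that a J segment's signal has. Read on the given strand with those allowances, 2 of the 132890 alpha clonotypes, 0.00151%, held this layout, and on the reverse strand 0 did. The 2 have the same length, and the other was found in 1 library. A match of letters is a description only.

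TRAJ12-a was a member of 8 libraries and present in all 10. It had 73, 37, 41, 23 and 97 counts across CNS4KO replicates 1 to 5 and 70, 77, 229, 26 and 74 counts across CNS4Flox replicates 1 to 5. It was a member of all 5 CNS4Flox libraries and of 3 CNS4KO libraries, and CNS4Flox replicate 3 held its highest share, 0.488%. TRAJ30-a, a member of 7 libraries, had 43, 138, 48, 0 and 23 counts in CNS4KO and 18, 74, 102, 92 and 138 counts across CNS4Flox replicates 1 to 5. It was at 0 in 1 library, CNS4KO replicate 4, where a count of 0 still allows up to 3 counts of 40584.

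TRAJ18-a, also a member of 7 libraries, reads as the junction of the invariant alpha chain of natural killer T cells, a lineage that recognises lipids on CD1d and is distinct from regulatory T cells. It had 63, 39, 29, 50 and 67 counts across CNS4KO replicates 1 to 5 and 28, 48, 39, 25 and 16 counts across CNS4Flox replicates 1 to 5. Every library held it, at 0.0317% to 0.123% of alpha counts, and the groups overlapped. Which cells of the preparation carried it was not tested.

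The clonotypes that were members of 5 or 4 lists were less even. TRAJ31-a had 0, 67, 123, 60 and 0 counts in CNS4KO and 0, 42, 26, 24 and 4 counts across CNS4Flox replicates 1 to 5, and was thus at 0 in 3 libraries and a member of 5. TRAJ12-b had 39, 118, 138, 64 and 0 counts in CNS4KO and 8, 0, 8, 0 and 32 counts across CNS4Flox replicates 1 to 5. Its highest values all fell in CNS4KO libraries, but CNS4KO replicate 5 held none and CNS4Flox replicate 5 had it among its 100. By contrast TRAJ30-b, TRAJ40-a, TRAJ22-a and TRAJ22-b, members of 4 lists each, had counts in all 10 libraries. TRAJ22-a ranged from 9 counts in CNS4Flox replicate 4 to 108 in CNS4KO replicate 5, and TRAJ22-b from 6 in CNS4KO replicate 4 to 72 in CNS4Flox replicate 5.

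By group, 433 distinct members were in CNS4KO lists only, 408 in CNS4Flox lists only and 44 in lists of both. A clonotype in 1 list is by definition in lists of 1 group only, and this holds for 816 of the 885. The 433 and 408 are thus no measure of a difference between the groups. The lists of CNS4KO replicate 5 and CNS4Flox replicate 3 had 16 clonotypes in common, which enter the 44. Any other 2 lists had at most 11 in common. Numbers within a group cannot be set against the 44, since more pairs of lists lie across the groups than within either. On average 2 CNS4Flox lists had 7.4 clonotypes in common and 2 CNS4KO lists 3.3. Lists of different groups had 5.0 in common, or 4.54 with that pair of lists left out. At least 2 CNS4KO lists held 16 clonotypes, of which 6 were in no CNS4Flox list, and 5 of these 6 had a count in a CNS4Flox library. At least 2 CNS4Flox lists held 32, of which 19 were in no CNS4KO list, and 16 of these 19 had a count in a CNS4KO library. The sequences shown next are those of these clonotypes that illustrate the range.
TRAJ9-a: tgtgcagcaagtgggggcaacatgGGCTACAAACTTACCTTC
TRAJ21-a: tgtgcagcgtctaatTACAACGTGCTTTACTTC
TRAJ43-b: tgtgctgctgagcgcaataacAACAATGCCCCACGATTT
TRAJ30-e: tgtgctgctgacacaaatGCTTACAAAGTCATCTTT
TRAJ12-c: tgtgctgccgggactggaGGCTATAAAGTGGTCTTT
TRAJ12-d: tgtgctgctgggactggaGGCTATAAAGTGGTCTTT
TRAJ37-a: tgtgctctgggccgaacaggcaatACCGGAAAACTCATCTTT
TRAJ9-a was the CNS4KO clonotype with no count in any CNS4Flox library, and had 5, 0, 51, 56 and 0 counts across CNS4KO replicates 1 to 5. TRAJ43-b had counts in all 10 libraries, 12 to 57 in CNS4KO and 4 to 11 in CNS4Flox libraries. It was named because CNS4KO lists held it and CNS4Flox lists did not. Higher counts in CNS4KO thus follow in part from that choice, and this difference has no test. TRAJ21-a had 132 and 77 counts in CNS4KO replicates 1 and 5, 1 count in CNS4KO replicate 4, 5 counts in CNS4Flox replicate 2 and 0 in the other 6 libraries. On the CNS4Flox side, TRAJ30-e was a member of replicates 1, 2 and 5 with 31, 61 and 51 counts, had 26 and 14 counts in the other CNS4Flox libraries, and had 9 to 31 counts in CNS4KO libraries. TRAJ12-c and TRAJ12-d encode the same amino acids with different codons. Both were members of 3 CNS4Flox libraries, present in 9 libraries and at 0 in CNS4KO replicate 2. TRAJ37-a, with 258 counts in CNS4Flox replicate 2 and 35 in CNS4Flox replicate 1, was at 0 in all other libraries.

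The very largest clonotypes were mostly private. For 8 of the 10 libraries the top clonotype had no count in any other library, including TRAJ17-a with 2042 counts in CNS4KO replicate 1 and TRAJ31-b with 1433 counts in CNS4KO replicate 5. TRAJ26-b, with 913 counts in CNS4KO replicate 3, had 1 count in CNS4Flox replicate 2. The other exception is TRAJ37-a. Several of these sequences were nonetheless encoded by other codons somewhere: the amino acid sequence of TRAJ30-c, the largest clonotype of CNS4KO replicate 4, had 12 other nucleotide versions over the 10 libraries, and that of TRAJ17-a had 1.

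Sharing with other libraries had lower means for CNS4KO than for CNS4Flox members, but no difference passed the threshold after adjustment when all libraries were kept. The number of private members, found in no other library, was 59, 68, 50, 54 and 41 across CNS4KO replicates 1 to 5 and 42, 44, 10, 43 and 53 across CNS4Flox replicates 1 to 5. The means were 54.4 ± 10.1 and 38.4 ± 16.5 of 100 (SD, n = 5 each), and the groups overlapped (difference 16, two-sided exact permutation p = 0.0952, adjusted p = 0.133 over 7 values). The low value of 10 belongs to CNS4Flox replicate 3, one of the pair. When a clonotype found only in the pair counts as private, that library has 50, CNS4KO replicate 5 has 45, and the difference is 8.80 (exact permutation, adjusted p = 0.111).

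**Figure D3:**
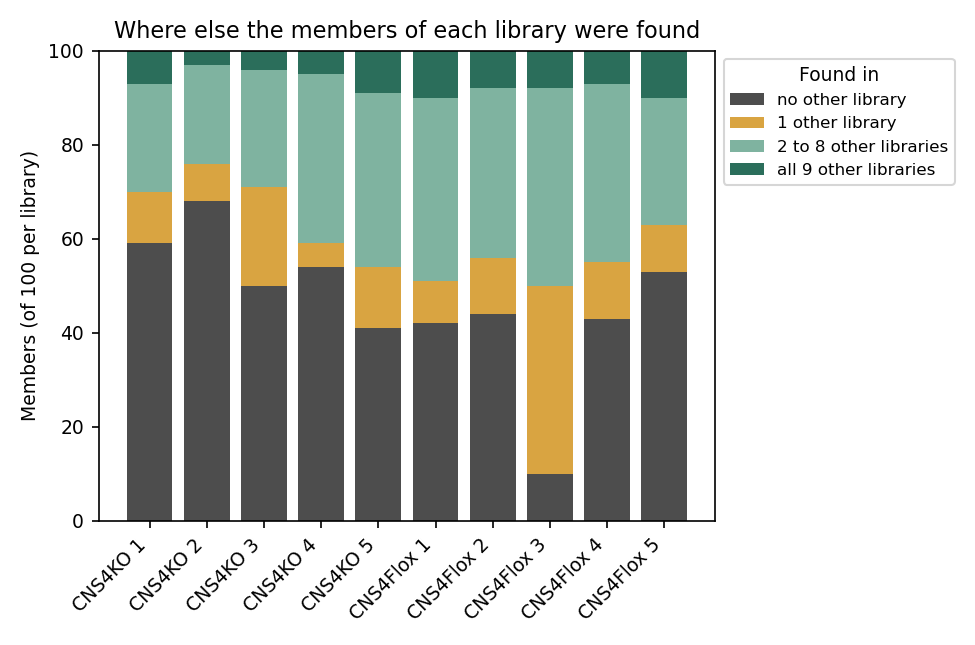
Where else the 100 members of each library were found, as stacked numbers of members found in no other library, 1 other, 2 to 8 others or all 9 others. The lowest bar segment, the private members, spans 41 to 68 in CNS4KO libraries and 10 to 53 in CNS4Flox libraries, with the 10 in CNS4Flox replicate 3.

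At the other end, 7, 3, 4, 5 and 9 members of CNS4KO replicates 1 to 5 and 10, 8, 8, 7 and 10 members of CNS4Flox replicates 1 to 5 were found in all 10 libraries (difference -3.00, exact permutation p = 0.0635, adjusted p = 0.111). A member was present in 1.68, 1.24, 1.82, 2.0 and 2.65 of the 9 other libraries on average across CNS4KO replicates 1 to 5, and in 3.06, 2.55, 3.06, 2.70 and 2.48 across CNS4Flox replicates 1 to 5. Here 4 of 5 CNS4KO libraries lay below every CNS4Flox library, and CNS4KO replicate 5 lay above 2 of them. The difference was -0.89 libraries (exact permutation p = 0.0238, adjusted p = 0.111).

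Counted by pairs of libraries, 19.9 members of a CNS4KO library were found in another CNS4KO library on average, and 31.7 members of a CNS4Flox library in another CNS4Flox library (difference -11.9, exact permutation p = 0.0397, adjusted p = 0.111). Across the groups, CNS4KO members were found at 21.7 of 100 in CNS4Flox libraries, and CNS4Flox members at 30.04 of 100 in CNS4KO libraries, or 27.7 without the pair. Pairs of the same group and pairs of different groups gave nearly the same mean (difference -0.09 members, exact permutation p = 0.984, adjusted p = 0.984). These calls depended on CNS4KO replicate 5. Without it, the adjusted p was 0.0333 for private members (difference 11.7), 0.0333 for members in all 10 libraries (-4), 0.0185 for other libraries per member (-0.85), 0.0185 for the detection within groups (-13.8) and 0.0185 for same against different groups (3.11), all by the exact permutation test. Without both libraries of the pair 4 libraries remain on each side, where the smallest p is 0.0286, and the adjusted p-values of these 5 values were 0.12, 0.0667, 0.0667, 0.0667 and 0.167. The level of the members and the number of clonotypes also differ between the groups, as given above, and their part in these differences was not tested. Alpha counts overlapped between the groups, at 40584 to 68663 for CNS4KO and 40882 to 50447 for CNS4Flox. With every searched library thinned to the smallest alpha total, the difference in other libraries per member was -0.89.

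Members were present in more of the other libraries on average than the other alpha clonotypes of the same library. The other clonotypes were present in 1.24 to 1.45 of the other 9 libraries, so members exceeded them by 1.01 ± 0.648 libraries (SD, n = 10), in 9 libraries, with CNS4KO replicate 2 at 1.24 against 1.35 the exception (two-sided exact sign-flip permutation p = 0.00391). Without the pair the difference was 0.69 (exact sign-flip permutation p = 0.0156). The number of private members does not show the same picture. Of the other alpha clonotypes, 52.7% to 55.3% were private in CNS4KO and 51.4% to 55.7% in CNS4Flox libraries, and members of CNS4KO replicates 1, 2 and 4 were private more often than the rest, at 59, 68 and 54 of 100. At the other end, 0.487% to 0.802% of the other clonotypes were found in all 10 libraries, below the 3 to 10 of 100 among members in each library. The direction turned when only other clonotypes with a count of at least 10 were the reference: members were then present in 0.63 fewer libraries (exact sign-flip permutation p = 0.00195, the smallest that 10 libraries allow).

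Of the 5 rank classes, sharing was highest at ranks 101 to 1000. This class is wide and does not place the peak next to the members. Lists of 200 members gave means of 2.23 other libraries in CNS4KO and 2.78 in CNS4Flox libraries. Clonotypes at ranks 1 to 10 were present in 0.880 ± 0.536 other libraries in CNS4KO and 1.84 ± 0.929 in CNS4Flox libraries (SD, n = 5 each). At ranks 11 to 100 the values were 1.99 ± 0.518 and 2.87 ± 0.259, and at ranks 101 to 1000 they were 2.68 ± 0.117 and 3.33 ± 0.146. At ranks 1001 to 10000 they were 1.53 and 1.61. The highest of the 5 rank classes was ranks 101 to 1000 in all 10 libraries, and the 10 largest clonotypes lay below ranks 11 to 100 in 9 libraries, the exception being CNS4Flox replicate 3. These steps are described without a test. Over the 8 libraries without the pair, the values out of 7 other libraries were 0.450 and 1.15 at ranks 1 to 10, 1.43 and 2.21 at ranks 11 to 100, and 2.06 and 2.59 at ranks 101 to 1000 in CNS4KO and CNS4Flox libraries, with the peak at ranks 101 to 1000 in all 8. Private clonotypes made up 60.0% and 58.0% of ranks 1 to 10 in CNS4KO and CNS4Flox libraries, 53.8% and 36.2% of ranks 11 to 100, and 37.7% and 27.2% of ranks 101 to 1000. Without the pair these were 65.0% and 70%, 59.2% and 44.4%, and 42.6% and 34.0%, so the order of the groups at ranks 1 to 10 turned. None of the 50 clonotypes at ranks 1 to 10 of CNS4KO libraries was found in all 10 libraries. In CNS4Flox libraries a mean of 6% of ranks 1 to 10 was, with none in CNS4Flox replicates 2 and 5. The groups thus overlapped, and this difference was not tested.

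**Figure D4:**
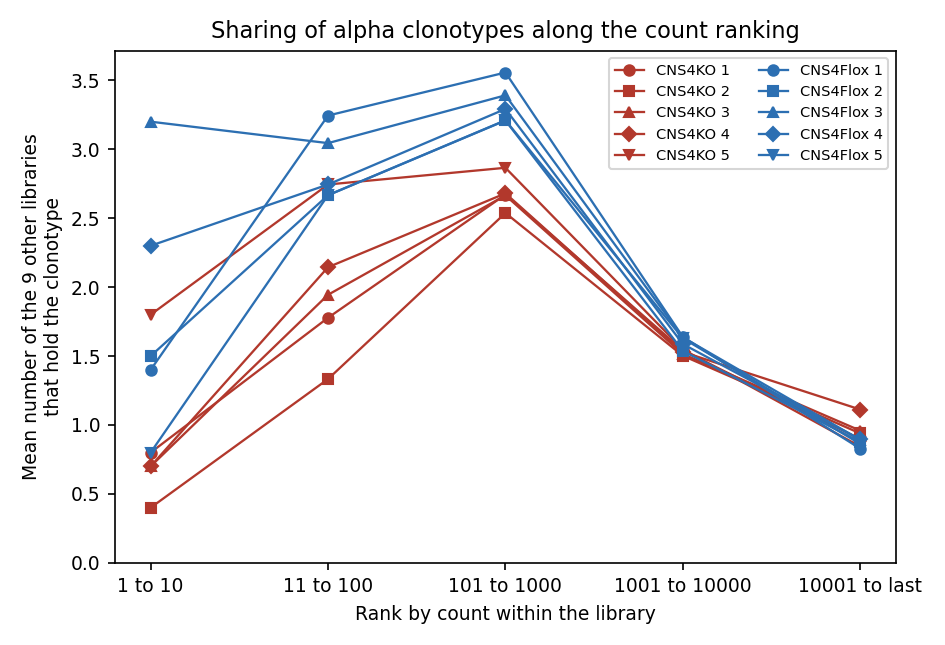
Mean number of the 9 other libraries that hold an alpha clonotype (y axis) by its rank by count in its own library (x axis, 5 classes), 1 line per library, CNS4KO in red and CNS4Flox in blue. All 10 lines peak at ranks 101 to 1000, and the members are the first 2 classes.

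Members often had the same amino acids as another nucleotide sequence of their library. This was so for 32, 32, 31, 43 and 40 of 100 members across CNS4KO replicates 1 to 5 and for 60, 48, 40, 47 and 40 across CNS4Flox replicates 1 to 5 (difference -11.4, exact permutation p = 0.0476, adjusted p = 0.111). Among the other alpha clonotypes the mean was 31.8% in CNS4KO and 36.4% in CNS4Flox libraries, whose lists of clonotypes are longer. Lists of 100 were also taken anew with clonotypes defined by amino acids, their counts summed over codons. In these lists 17.4 sequences of a CNS4KO and 11.8 of a CNS4Flox library were private on average (difference 5.6). In all 10 libraries 35.8 and 47.2 were found (difference -11.4, exact permutation, adjusted p = 0.0833). The 885 distinct members chosen by nucleotides, read as amino acids, became 822 sequences, of which 92 were members of several libraries. Near copies were present too: 22 to 44 members of a CNS4KO library and 38 to 61 of a CNS4Flox library had another clonotype of the same library 1 base away. Only 2 to 6 pairs of members per library were 1 base apart.

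The groups overlapped in CDR3 length. The mean over the 100 members was 40.7, 40.6, 40.7, 39.9 and 40.0 bases across CNS4KO replicates 1 to 5 and 40.5, 40.6, 40.1, 40.8 and 40.6 bases across CNS4Flox replicates 1 to 5 (difference -0.17 bases, exact permutation p = 0.397, adjusted p = 0.463). With 50 members per library the difference was -0.9 bases and with lengths weighted by count -0.35, neither past the threshold (exact permutation, adjusted p = 0.125 and 0.194). Members were 0.19 ± 0.293 bases shorter than the other alpha clonotypes of their library (SD, n = 10), in 8 of 10 libraries (exact sign-flip permutation p = 0.0762). This value rests in part on TRAJ45-a: without it members were 0.48 bases shorter (exact sign-flip permutation p = 0.00195). It was also past 0.05 with 200 members (-0.22 bases, exact sign-flip permutation p = 0.0293) and without CNS4Flox replicate 4 (-0.24 bases, exact sign-flip permutation p = 0.00781). It turned to 0.11 bases longer against clonotypes with a count of at least 10 (p = 0.381 by the same exact test). Private members were the longer ones. Distinct members found in 1 library only had a median of 42 and a mean of 41.1 bases, those found elsewhere at lower rank 39 and 39.3 bases, and members of several libraries 39 and 39.8 bases. Private members exceeded shared members in 9 of 10 libraries, the exception being CNS4KO replicate 1 with 40.5 against 40.8 bases.

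The members used a wide set of J segments. The mouse has a long row of alpha J segments, and most leave a recognisable protein end, from which 995 of 1000 members were named to 31 J names. By protein end, KLTF, shared by 9 J names, was the most frequent with 186 members. KVVF (TRAJ12 and TRAJ34) followed with 121, KLIF (TRAJ32, TRAJ37 and TRAJ57) with 88, KVIF (TRAJ30) with 82, and QLIF (TRAJ22) and RIFF (mostly TRAJ31) with 66 each. Among the other alpha clonotypes KLTF was also frequent, at 21.2% against 18.6 members per library. KVVF had 9.62% against 12.1, KLIF 8.83% against 8.8 and RIFF 7.15% against 6.6, and KVIF and QLIF are compared below. The alpha chain was taken from the CDR3 end, and 4 members, 2 of them in CNS4KO replicate 2, began with CASS, the usual start of a beta chain.

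No J end passed the test between the groups. Of 18 ends tested, 0 passed in edgeR's quasi-likelihood test (0.0%), 1 had an unadjusted p under 0.05, and DESeq2 gave 0 and 0. That end was QLIF, with 5, 4, 3, 7 and 6 members across CNS4KO replicates 1 to 5 and 9, 8, 7, 7 and 10 across CNS4Flox replicates 1 to 5 (log2 fold change -0.70, SE 0.32, edgeR adjusted p = 0.681). The groups met at 7. KYVF (TRAJ40), second by p, had 10, 5, 4, 5 and 7 members in CNS4KO and 3, 6, 4, 3 and 4 across CNS4Flox replicates 1 to 5 (log2 fold change 0.62, SE 0.38, edgeR adjusted p = 0.681). By J name in place of end, 27 were tested and 0 passed in edgeR (0.0%), with 1 at an unadjusted p under 0.05.

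Against the other alpha clonotypes of the same libraries, 2 of the 18 ends passed, both higher among members (11.1%), with the library as a block in edgeR. KVIF, the end of TRAJ30, was carried by 4, 3, 10, 9 and 9 members of CNS4KO replicates 1 to 5 and by 12, 10, 7, 8 and 10 members of CNS4Flox replicates 1 to 5, and by 4.40% ± 0.225 of the other alpha clonotypes (SD, n = 10). Members lay above the rest of their library in 8 of 10 libraries (log2 fold change 0.90, SE 0.19, edgeR adjusted p = 6.25e-05). QLIF, the end of TRAJ22, had a mean of 6.60 members per library against 4.37% ± 0.272 of the rest, above it in 8 of 10 libraries (log2 fold change 0.59, SE 0.20, edgeR adjusted p = 0.0340). Its call was lost without CNS4Flox replicate 1, 2, 3 or 5 (adjusted p 0.0736 to 0.0967) without the pair (0.104) and with 50 members per library (0.122). With TMM scaling 6 ends passed, 2 higher and 4 lower.

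By J name, 3 of 27 passed (11.1%), all higher among members: TRAJ30 (log2 fold change 0.91, edgeR adjusted p = 3.10e-05), TRAJ12 (0.65, edgeR adjusted p = 0.00477) and TRAJ22 (0.60, edgeR adjusted p = 0.0238). TRAJ12 was counted in 9, 8, 7, 10 and 5 members of CNS4KO and 4, 8, 6, 10 and 6 members of CNS4Flox replicates 1 to 5, above the rest in 9 of 10 libraries. RefSeq places these segments on mouse chromosome 14, in the T cell receptor alpha locus, on GRCm38.p6: TRAJ30 at 54189866 to 54189924, TRAJ22 at 54197248 to 54197307 and TRAJ12 at 54206552 to 54206610. The 30 named J segments with a RefSeq position and a member span 54157280 to 54217901.

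**Figure D5:**
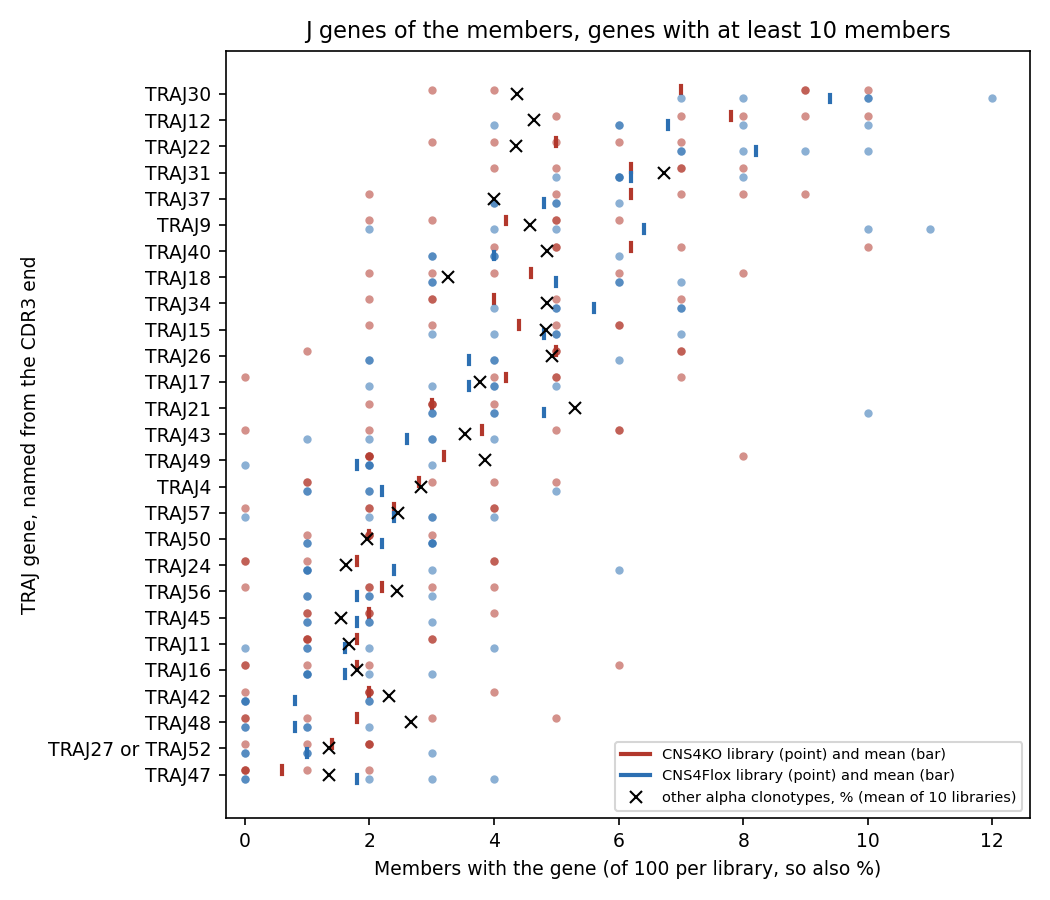
Members of each library (points, of 100, so also %) that carry each TRAJ gene, for genes with at least 10 members, CNS4KO in red and CNS4Flox in blue with group means as bars, and the mean share of the gene among other alpha clonotypes as crosses. TRAJ30, TRAJ12 and TRAJ22 have both group means to the right of the cross, as do others that did not pass the test, such as TRAJ37 and TRAJ18.

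The 3 segments were unevenly spread over the classes of sharing. Together they were carried by 28 of the 69 members of several libraries (40.6%), by 75 of the 352 found elsewhere at lower rank (21.3%) and by 64 of the 464 found in 1 library only (13.8%), against 12.4% of all alpha clonotypes. Among the 69, TRAJ30 was counted 11 times, TRAJ22 10 times and TRAJ12 7 times. The segments were named by the fit above, in which a member of several libraries counts once per library. Their share among the 69 thus follows in part from that choice and was not tested. When both members and other clonotypes were restricted to those found in 1 library only, 0 of 15 ends passed in edgeR, 0 had an unadjusted p under 0.05, and KVIF had a log2 fold change of 0.22 (edgeR adjusted p = 0.787) and QLIF of 0.29 (adjusted p = 0.787). The private members alone thus gave no J end past the threshold, and the restriction leaves fewer members to test.

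On the V side of the joint, some frequent starts also differed from the rest. The first 9 bases of a CDR3 come largely from the V segment, whose name was not used because all entries carry beta chain names. TGTGCAGCA began 156 members, 15.6 per library against 9.18% of the other alpha clonotypes, and lay above them in 10 of 10 libraries. TRAJ30-a, TRAJ31-a, TRAJ12-b and TRAJ22-a begin with it, as do 22 of the 69 members of several libraries (31.9%). So do 59 of the 352 found elsewhere at lower rank (16.8%) and 40 of the 464 found in 1 library only (8.62%). TGTGCTGCT, with 9.1 members per library against 6.49%, and TGTGCAGCT, with 6.3 against 4.06%, lay above the rest in 8 of 10 libraries each. Their means were 6.8 ± 3.19 and 4.2 ± 3.70 in CNS4KO and 11.4 ± 3.78 and 8.4 ± 2.70 in CNS4Flox libraries (SD, n = 5 each). The start TGTGCAGTG was near the rest, with 7.7 members per library against 7.66%. TGTGCTCTG, the most frequent start of the other alpha clonotypes at 18.6%, began 13.5 members per library, 16.2 ± 4.44 in CNS4KO and 10.8 ± 2.39 in CNS4Flox libraries (SD, n = 5 each), and lay above the rest in 1 of 10 libraries. These starts were counted after the sequences were seen and have no test.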

How the data were processed

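Each of the 10 deposited tables lists the clonotypes of 1 library of splenic regulatory T cells. Per the labels' protocols, TRIzol RNA was copied with primers for both chains and a template switch adapter, and the cDNA went through 2 rounds of PCR and a NovaSeq run. Per the file headers, each entry has a deposited count, a whole number, and a fraction, which equals the count over the library's total of both chains. No source says if a count is a read or a molecule, so intervals and limits from counts cover counting error only. The submitters' processing notes name mm10, and the aligner, the clonotype caller and the number of cells are not given in the sources used here.

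All entries carry TRBV and TRBJ names although both chains were amplified, so the chain was taken from the CDR3 end and V names were not used. J names come from a list of protein ends of 6 residues written from general knowledge, whose 38 gene names are all in RefSeq's table for GRCm38.p6. Counts of entries with the same CDR3 nucleotides were summed, and no count was scaled. Detection means a count of at least 1. The depth was 61793 to 95853 counts per library.

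Numbers of members per J end were tested with edgeR 4.0.16 in R 4.3.3 (quasi-likelihood test, library size set to the number of clonotypes, no TMM, ends with at least 10 members in at least 5 libraries, Benjamini-Hochberg adjustment, threshold 0.05), with DESeq2 1.42.0 as an alternative. Single values were compared by a two-sided exact permutation test over the 252 assignments of libraries to groups, whose smallest p is 0.00794, adjusted over 7 values, and members with the rest of their library by sign flips over 1024 assignments. Code was run in Python 3.11.15 with scipy 1.17.1 and tested on simulated data. Alternatives were 50 or 200 members, merged near neighbours, a count of at least 2, equal depth, a carry-over filter, amino acid clonotypes, weighting lengths by count, other J definitions, the filter on ends, TMM, no library block, and leaving out each library or the pair. Added after seeing the data were J names, reference clonotypes with a count of at least 10, omission of TRAJ45-a, counting clonotypes shared only by the pair as private, restriction to clonotypes of 1 library, and recurrence and rank classes without the pair.

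Clonotypes named are the 10 in the most lists of 100, the largest of each library, and up to 5 per group in at least 2 lists of that group alone. J ends named are the 6 most frequent, those past the threshold, and otherwise the 2 with the smallest p. The members and lists were chosen with earlier results of these data known.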

Additional observations from a re-analysis of the deposited data

Results flagged for a closer look

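The number of private members in CNS4Flox replicate 3 was 10, far from the 42 to 53 of the other 4 CNS4Flox libraries. The gap exceeded Dixon's 95% limit of 0.710 for 5 libraries. In all, 18 groups of 5 values were tested in this way, and chance flags about 1 in 20 groups. This library's members were found at 87 of 100 in CNS4KO replicate 5, and 40 of them in that library only. With clonotypes found only in the pair counted as private, it had 50.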

How the results depend on the processing

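No paired analysis was possible because the labels carry no replicate numbers. Private members had a difference between CNS4KO and CNS4Flox of 9.30 to 20.8 when each library was left out in turn, members in all 10 libraries one of -4.55 to -2.65, other libraries per member one of -0.86 to -0.71, and detection within CNS4KO minus within CNS4Flox one of -13.8 to -9.65. All 4 passed the threshold without CNS4KO replicate 5 (11.7, -4, -0.85 and -13.8). Their other alternatives kept direction and call, though amino acid clonotypes moved the first 2 to 5.6 and -11.4, as did all 14 for members with a synonymous clonotype. Adjusted p over all alternatives was 0.0333 to 0.333, 0.0333 to 0.367, 0.0185 to 0.236, 0.0185 to 0.236 and 0.0556 to 0.333 for these 5 values. Detection within minus between groups changed sign: 1.5 without both libraries of the pair, 0.02 at a count of at least 2, 0.10 with the carry-over filter, and -2.10 to 3.11 with a library left out, past the threshold at 3.11 without CNS4KO replicate 5.

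The length difference between the groups was 0.015 bases with 200 members, -0.9 with 50, -0.35 weighted by count, and -0.27 to -0.06 with a library left out. Members minus the rest in length gave -0.22 with 200 members, -0.48 without TRAJ45-a, 0.11 against clonotypes with a count of at least 10, and -0.24 to -0.14 with a library left out. In other libraries per member, members minus the rest gave -0.63 against clonotypes with a count of at least 10 and 0.81 to 1.02 with a library left out, and 18 of 19 alternatives kept its call. J ends past the threshold between the groups numbered 0 in all 19 alternatives. Against the rest, 2 ends became 1 with 50 members, 6 with 200 members (3 higher, 3 lower), 1 without the pair, 6 with TMM (2 higher, 4 lower), 3 without the library block, 0 among clonotypes of 1 library, where fewer are tested, and 1 to 4 with a library left out (1 without CNS4Flox replicate 1, 2, 3 or 5, 4 without CNS4KO replicate 2 or 3). KVIF kept its call in 17 of 18 alternatives. Otherwise the cause was not tested. With 5 libraries per group and 100 members each, J ends with few members are measured coarsely, and a clonotype at 0 may be below the depth.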
